A study of Mus musculus with 12 samples.

Results

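Genes of the cell cycle and of mitosis were followed in the liver and quadriceps muscle of 4-week-old C57BL/6 mice on Affymetrix mouse arrays. The 45 genes were given by name, in a list chosen with earlier results of these data known. Of them, 44 had a probe set assigned to 1 gene symbol, of 18193 genes with such a probe set. Ccnb1, which encodes cyclin B1, had none. Each gene was represented by the probe set with the highest mean over the 6 samples of the tissue. NP+tau offspring came from dams on a normal protein diet (20% casein) that received 1% taurine in the drinking water from day 1 of pregnancy. NP offspring came from dams on the same diet with plain water. The labels call the supplementation in utero, and by the paper the diet regimes lasted until birth. There were 3 NP+tau and 3 NP samples of each tissue. By the methods, each pup was from a different dam and both tissues came from the same animals. The samples carry the numbers 1 to 3 within a diet group in each tissue, and whether equal numbers in liver and muscle name 1 animal is not stated.

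A dividing cell passes through G1, copies its DNA in S phase, and separates the copies in mitosis after G2. Cyclins and their kinases drive these steps. The RNA of many genes described here rises in a part of the cycle, so that tissue RNA levels can follow the number of dividing cells. The liver still grows at weaning and its hepatocytes divide and become polyploid, while muscle fibres are postmitotic and division takes place in the cells between them. In whole tissue, fewer dividing cells and less RNA per cell cannot be told apart.

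Values are log2 expression values, on which 1 unit is a 2-fold difference, and they were compared within a tissue only because the arrays of each tissue were normalised apart. Differences are NP+tau minus NP with the standard error (SE) and the adjusted p from limma, adjusted by Benjamini-Hochberg over the 29274 probes tested in each tissue. A probe was tested when its highest value in the tissue reached 4.60 in liver or 4.49 in muscle. In liver the chosen probe sets of 43 genes passed this limit and that of Tyms was dimmer. In muscle 38 passed, and those of Aurkb, Ttk, Nek2, Kif20a, Tyms and E2f8 were dimmer. A second E2f8 probe set passed in muscle and was at 3.88, 3.77 and 5.34 in NP+tau and at 4.14, 3.65 and 4.26 in NP (0.32, SE 0.43, adjusted p = 0.811). With 6 arrays in a tissue, the number of samples sets the precision. The 12 hepatocyte markers averaged 12.8 to 13.3 in NP+tau livers and 12.8 to 13.3 in NP livers, and the 13 muscle fibre markers averaged 14.3 to 14.4 in NP+tau muscles and 14.3 to 14.4 in NP muscles. In liver the muscle fibre markers averaged 5.21, 4.49 and 4.50 in NP+tau 1 to 3 and 4.43, 4.49 and 4.42 in NP, highest in NP+tau 1. The array of liver NP+tau 1 stood apart, with a median absolute deviation from the median liver of 0.450 against 0.0769 to 0.169 for the other livers. Xist, which is transcribed from the inactive X chromosome, was at 11.1, 5.96 and 5.07 in NP+tau livers 1 to 3 and at 11.7, 11.6 and 11.8 in NP livers. The Y-linked Eif2s3y was at 3.78, 8.55 and 8.57 in NP+tau livers 1 to 3 and at 3.61, 3.64 and 3.58 in NP livers. In muscle Xist was likewise low in NP+tau 2 and 3 alone, at 5.56 and 5.12. By Xist and Eif2s3y, NP+tau 2 and 3 were male, and NP+tau 1 and all NP samples female, in each tissue. The labels give no sex. The methods state that all groups held both male and female pups, whereas these values read all NP samples as female. By these values the diet groups thus differed in sex as well.

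In liver the cell cycle genes were low together in 1 sample, NP+tau 2, and this sample carried the lower mean of the NP+tau group. Of the 43 genes tested, 39 had their lowest value in NP+tau 2, which was the lowest liver for 11% of all probes tested. NP 1 was the highest liver for 31 of the 43, against 25.3% of all probes. No gene passed limma's test, with 0 of 43 at an adjusted p under 0.05 (0% of all probes in either direction) and 0 of 43 at an unadjusted p under 0.05 (3.99% of all probes lower and 0.7% higher). The NP+tau mean was nevertheless below the NP mean for 39 of the 44 genes measured, with a median difference of -0.43, while 54.2% of all probes lay below 0 and 45.8% above, with a median of -0.04. Without NP+tau 2, 21 of the 44 were below 0 and the median difference was 0.04.

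Mki67 encodes the Ki-67 antigen, which coats mitotic chromosomes and is the usual marker of proliferation. It was at 7.52, 4.63 and 8.18 in NP+tau livers 1 to 3 and at 8.82, 7.16 and 7.66 in NP livers, a difference of -1.10 (SE 0.92, adjusted p = 0.718). Top2a, the topoisomerase that untangles sister chromatids, was at 6.90, 4.25 and 7.52 in NP+tau livers and at 8.10, 6.62 and 6.94 in NP livers (-0.999, SE 0.85, adjusted p = 0.718). For both genes NP+tau 3 lay above NP livers 2 and 3, and the groups overlapped.

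**Figure D1:**
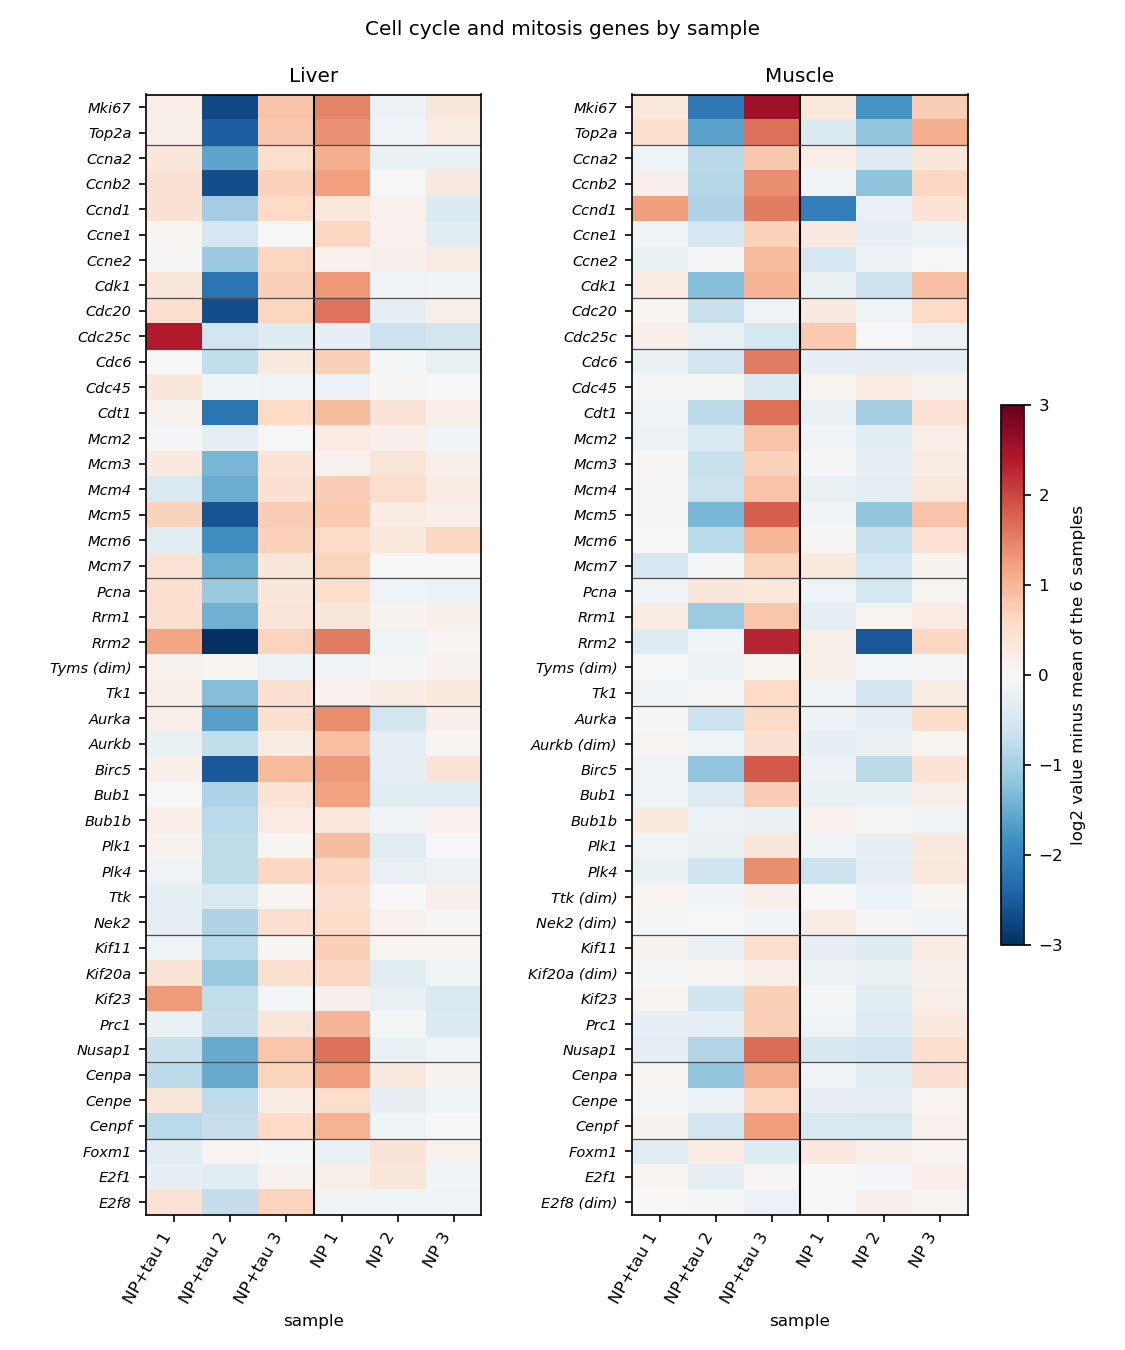
Each cell is the log2 value of a gene in a sample minus its mean over the 6 samples of that tissue (colour, red above and blue below the mean). Columns are the NP+tau and then the NP samples of liver and of muscle, rows are the 44 genes measured, lines separate roles, and genes whose chosen probe set lay below the limit on low values are marked dim. The NP+tau 2 column of liver is blue for nearly all rows, and the NP+tau 3 column of muscle is red for most.

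Among the cyclins and their kinase, Ccnb2, a partner of Cdk1 at entry into mitosis, was at 7.56, 4.45 and 7.79 in NP+tau livers and at 8.33, 7.12 and 7.36 in NP livers. Cdk1, the kinase that starts mitosis, was at 7.95, 5.39 and 8.29 in NP+tau livers and at 8.88, 7.46 and 7.48 in NP livers (-0.73, SE 0.80, adjusted p = 0.738). Without NP+tau 2 its difference was 0.18. Ccnd1, cyclin D1, which links growth signals to passage out of G1, was at 9.04, 7.54 and 9.18 in NP+tau livers and at 8.90, 8.71 and 8.18 in NP livers. Its difference was -0.01 (SE 0.46, adjusted p = 0.991), although NP+tau 2 was again the lowest liver. Ccne1 and Ccne2, the E cyclins of the G1 to S transition, differed by -0.31 and -0.34, and Ccna2, the cyclin of S phase and G2, by -0.48. All 6 genes of this role were below 0, with a median of -0.41.

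Cdc20, which activates the anaphase-promoting complex, followed Cdk1 with 7.97, 4.82 and 8.14 in NP+tau livers and 9.12, 7.20 and 7.65 in NP livers. The phosphatase Cdc25c, which removes the inhibitory phosphate from Cdk1, had another pattern. It was at 7.20, 4.25 and 4.47 in NP+tau livers and at 4.59, 4.19 and 4.28 in NP livers (0.95, SE 0.74, adjusted p = 0.718). Only the array of NP+tau 1 was high, and a second Cdc25c probe set was at 4.88 on that array and between 4.39 and 4.75 in the other livers.

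Origins of replication are licensed by loading of the Mcm helicase, which Cdt1 and Cdc6 carry out and which Cdc45 helps to fire. Mcm4 had the smallest unadjusted p of all cell cycle genes in liver. It was at 7.12, 6.06 and 8.001 in NP+tau livers and at 8.28, 8.07 and 7.77 in NP livers, a difference of -0.98 (SE 0.46, adjusted p = 0.718). NP+tau 3 lay within the NP range. Mcm6 was at 8.43, 6.91 and 9.46 in NP+tau livers and at 9.34, 9.07 and 9.38 in NP livers (-0.99, SE 0.59, adjusted p = 0.718). Mcm5 showed the drop in a single sample more sharply, with 8.24, 4.93 and 8.28 in NP+tau livers and 8.32, 7.75 and 7.69 in NP livers. Cdt1 was at 8.12, 5.82 and 8.61 in NP+tau livers and at 8.96, 8.40 and 8.21 in NP livers (-1.01, SE 0.69, adjusted p = 0.718). The chosen probe set of Mcm2 spanned 0.515 over the 6 livers, from 8.32 to 8.62 in NP+tau and from 8.50 to 8.84 in NP (-0.20, SE 0.18, adjusted p = 0.723). A second, dimmer Mcm2 probe set spanned more, at 7.27, 6.27 and 7.17 in NP+tau livers and at 7.84, 7.32 and 6.93 in NP livers (-0.46, SE 0.35, adjusted p = 0.718), and was lowest in NP+tau 2 as well. Mcm3 was at 5.42 and Mcm7 at 7.60 in NP+tau 2, while their other livers lay between 6.91 and 7.21 and between 9.06 and 9.74. Cdc6 was dimmer, at 3.72 in NP+tau 2 and from 4.25 to 5.16 elsewhere. Of the 9 licensing and firing genes, 8 were below 0, Cdc45 being the exception at 0.09.

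Rrm2, the subunit of ribonucleotide reductase that limits nucleotide supply, spanned 4.94 over the livers, the widest range of the 44 genes. It was at 9.41, 4.86 and 8.91 in NP+tau livers and at 9.80, 8.11 and 8.32 in NP livers (-1.02, SE 1.17, adjusted p = 0.746). Pcna, the sliding clamp of the replicative polymerases, was at 11.2, 9.61 and 11.1 in NP+tau livers and at 11.2, 10.6 and 10.6 in NP livers (-0.17, SE 0.45, adjusted p = 0.881). NP+tau 2 was thus lowest for Pcna too, while NP+tau 1 and 3 lay with the highest NP liver. Without NP+tau 2 the Pcna difference was 0.34. Rrm1, the other subunit of the reductase, was at 6.27 and Tk1, the thymidine kinase of S phase, at 6.72 in NP+tau 2, with the other livers at 7.83 to 8.20 and at 8.12 to 8.46.

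The 9 mitotic kinases and checkpoint genes were all below 0 in liver, with a median of -0.43 and a range from -0.94 to -0.16. Birc5, survivin, which holds Aurora B at the centromere, was at 6.38, 3.71 and 7.18 in NP+tau livers and at 7.52, 5.96 and 6.60 in NP livers. Ttk, the kinase that starts the spindle checkpoint, differed by -0.43 (SE 0.21, adjusted p = 0.718), Aurkb by -0.47 and Nek2, a kinase of the centrosome, by -0.49. Ttk was at 4.39, 4.22 and 4.71 in NP+tau livers and at 5.14, 4.67 and 4.81 in NP livers, close to the limit on low values. Aurka, the kinase of spindle assembly, was at 6.28, 4.47 and 6.56 in NP+tau livers and at 7.51, 5.56 and 6.25 in NP livers. Plk1, Plk4, Bub1 and Bub1b differed by -0.39, -0.16, -0.36 and -0.24, each lowest in NP+tau 2.

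Kif11, the motor that pushes the spindle poles apart, was the only cell cycle gene whose liver groups did not overlap, at 4.43, 3.77 and 4.64 in NP+tau and at 5.29, 4.65 and 4.66 in NP. That was 1 of 43 genes lower, against 9.11% of all probes, and 0 of 43 higher, against 5.73%. The highest NP+tau liver and the lowest NP liver differed by little, and the difference of -0.59 (SE 0.30, adjusted p = 0.718) did not pass the test. Among centromere genes, Cenpa, the histone variant that marks centromeres, was at 5.51, 4.76 and 6.94 in NP+tau livers and at 7.54, 6.57 and 6.38 in NP livers (-1.09, SE 0.58, adjusted p = 0.718). Cenpf, a kinetochore protein of G2 and mitosis, differed by -0.60 (SE 0.47), and was as low in NP+tau 1 (4.63) as in NP+tau 2 (4.74). Nusap1, a spindle microtubule protein, differed by -0.91 (SE 0.71). Kif23, a motor of cytokinesis, was at 7.80, 5.80 and 6.48 in NP+tau livers and at 6.67, 6.32 and 6.09 in NP livers, high on the array of NP+tau 1 as Cdc25c was.

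The ranges of the transcription factors over the livers were 0.721 for Foxm1, 0.679 for E2f1 and 1.38 for E2f8, below the median of 1.79 for the 43 genes. Foxm1, which activates genes of G2 and mitosis, was at 5.05, 5.46 and 5.34 in NP+tau livers and at 5.20, 5.77 and 5.49 in NP livers. E2f1, an activator of S phase genes, was at 4.80, 4.71 and 5.15 in NP+tau livers and at 5.22, 5.39 and 4.96 in NP livers (-0.31, SE 0.20, adjusted p = 0.718). E2f8, a repressor of the E2F family, was at 6.05, 4.92 and 6.30 in NP+tau livers and at 5.52, 5.49 and 5.50 in NP livers. Its NP livers thus lay between NP+tau 2 and the other NP+tau samples.

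**Figure D2:**
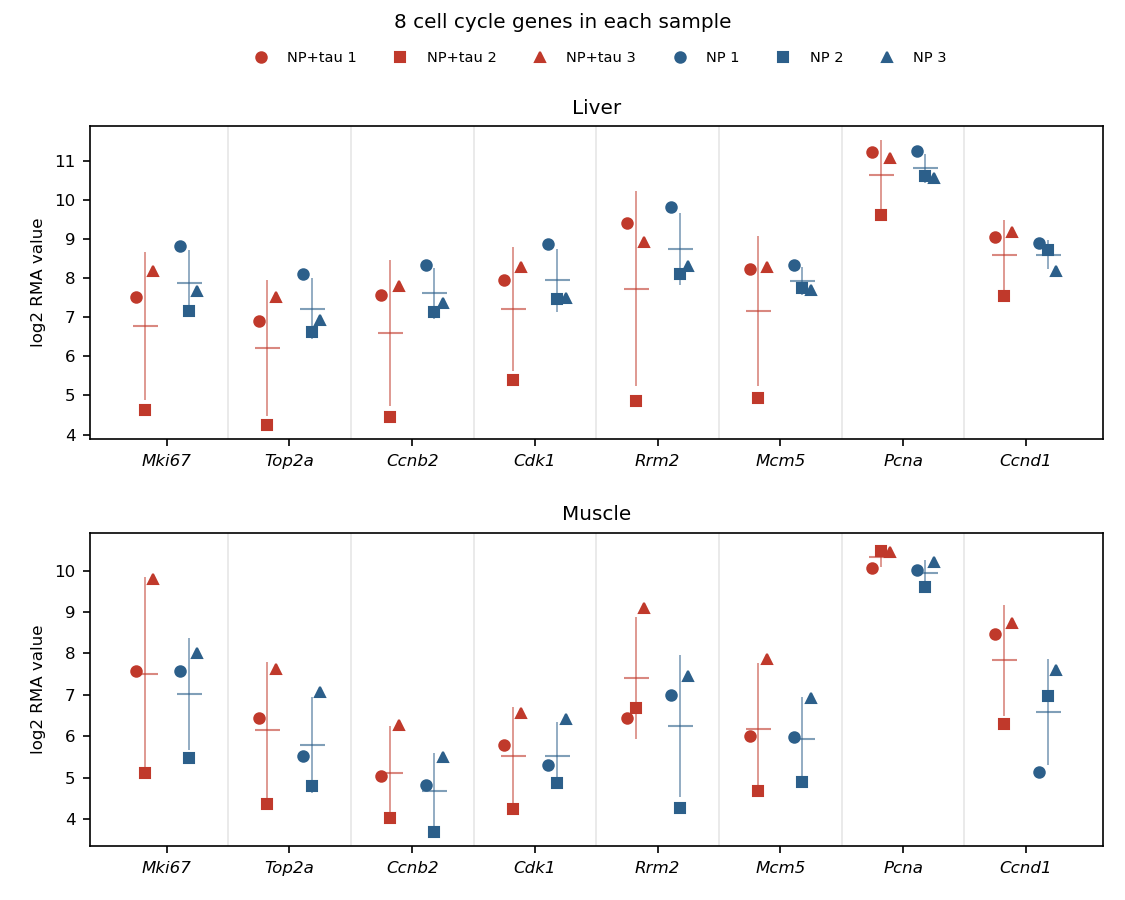
Log2 RMA values of 8 cell cycle genes in liver (top) and muscle (bottom), with NP+tau samples in red to the left of NP samples in blue. The marker gives the sample number, and the dash and bar give the mean and SD of the 3 samples of a group. In liver NP+tau 2 is the lowest point for each of the 8 genes, and in muscle NP+tau 3 is the highest for 7 of them, with NP+tau 2 above it for Pcna.

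In muscle the cell cycle genes again followed the sample more than the diet, but with other samples at the extremes. NP+tau 3 was the highest muscle for 31 of the 38 genes tested, against 20.4% of all probes. The lowest muscle was NP+tau 2 for 21 genes and NP 2 for 10, against 19.5% and 14.8% of all probes. No gene passed, with 0 of 38 at an adjusted p under 0.05 (0% of all probes in either direction) and 0 of 38 at an unadjusted p under 0.05 (3.72% of all probes higher and 2.4% lower). The NP+tau mean was above the NP mean for 30 of the 44 genes measured, with a median difference of 0.14, while 51.8% of all probes lay above 0 and 48.2% below, with a median of 0.01. Without NP+tau 3, 12 of the 44 were above 0 and the median difference was -0.19. Without NP 2, 20 were above 0 and the median difference was -0.02.

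Mki67 was at 7.58, 5.11 and 9.79 in NP+tau muscles 1 to 3 and at 7.56, 5.47 and 7.997 in NP muscles, a difference of 0.48 (SE 1.18, adjusted p = 0.902). Top2a was at 6.44, 4.37 and 7.61 in NP+tau muscles and at 5.52, 4.79 and 7.06 in NP muscles (0.35, SE 0.89, adjusted p = 0.906). For both genes sample 2 was the lowest and sample 3 the highest in either diet group. Cdk1 was at 5.78, 4.25 and 6.55 in NP+tau muscles and at 5.30, 4.88 and 6.42 in NP muscles, with a difference of -0.004 (SE 0.63, adjusted p = 0.998).

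Ccnd1 had the largest difference among the chosen probe sets of the cell cycle genes in muscle. It was at 8.46, 6.30 and 8.74 in NP+tau muscles and at 5.14, 6.98 and 7.61 in NP muscles (1.26, SE 0.82, adjusted p = 0.711). NP+tau 1 and 3 lay above each NP muscle and NP+tau 2 lay within the NP range. Without NP+tau 2 the difference was 2.02 (SE 0.67, adjusted p = 0.640). The other Ccnd1 probe sets gave 0.60 (SE 0.57) and 0.73 (SE 0.62), again with NP+tau 1 and 3 above each NP muscle. Ccne2 differed by 0.47 (SE 0.32, adjusted p = 0.712), with NP+tau 3 at 5.78 and the other 5 muscles between 4.32 and 4.80.

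Rrm2 was at 6.43, 6.68 and 9.10 in NP+tau muscles and at 6.997, 4.28 and 7.44 in NP muscles (1.17, SE 0.99, adjusted p = 0.733). The lowest muscle was NP 2 and the highest NP+tau 3. Pcna was at 10.0, 10.5 and 10.5 in NP+tau muscles and at 10.0, 9.61 and 10.2 in NP muscles (0.38, SE 0.21, adjusted p = 0.707). Tk1 was at 5.30, 5.37 and 6.00 in NP+tau muscles and at 5.31, 4.87 and 5.63 in NP muscles (0.29, SE 0.27, adjusted p = 0.745). Of the 9 licensing and firing genes, 8 were above 0 with a median of 0.13. Mcm2 was at 7.74, 7.46 and 8.79 in NP+tau muscles and at 7.82, 7.61 and 8.13 in NP muscles (0.14, SE 0.35). Mcm5 ranged from 4.68 to 7.86 in NP+tau muscles and from 4.88 to 6.92 in NP muscles.

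Cdc45 was the only gene whose muscle groups did not overlap, at 5.31, 5.38 and 4.93 in NP+tau and at 5.43, 5.59 and 5.45 in NP (-0.28, SE 0.17, adjusted p = 0.708). That was 1 of 38 genes lower, against 7.77% of all probes, and 0 of 38 higher, against 7.33%. A second Cdc45 probe set was at 4.93, 4.89 and 4.94 in NP+tau muscles and at 4.60, 4.73 and 4.90 in NP muscles, so that the 2 probe sets disagreed in direction. Cdc20, with the smallest unadjusted p of the cell cycle genes in muscle, was at 6.60, 5.88 and 6.41 in NP+tau muscles and at 6.82, 6.43 and 7.15 in NP muscles (-0.50, SE 0.26, adjusted p = 0.707). Another Cdc20 probe set was at 5.69, 4.67 and 6.84 in NP+tau muscles and at 5.43, 4.74 and 6.89 in NP muscles, with sample 2 lowest and sample 3 highest in either group as for Cdk1. Of the 44 genes, 34 had several probe sets.

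Foxm1 was in muscle at 5.14, 5.69 and 5.09 in NP+tau and at 5.77, 5.62 and 5.53 in NP (-0.33, SE 0.20, adjusted p = 0.708). Its lowest muscles were NP+tau 1 and 3. Cdc25c was at 4.98, 4.61 and 4.32 in NP+tau muscles and at 5.62, 4.82 and 4.65 in NP muscles (-0.40, SE 0.30, adjusted p = 0.717). Of the mitotic genes, Cenpf was at 4.94, 4.25 and 6.08 in NP+tau muscles and at 4.37, 4.38 and 4.97 in NP muscles (0.52, SE 0.45, adjusted p = 0.733). Cenpe, a kinetochore motor, differed by 0.29 (SE 0.24) and Kif11 by 0.26 (SE 0.24). Both were highest in NP+tau 3.

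**Figure D3:**
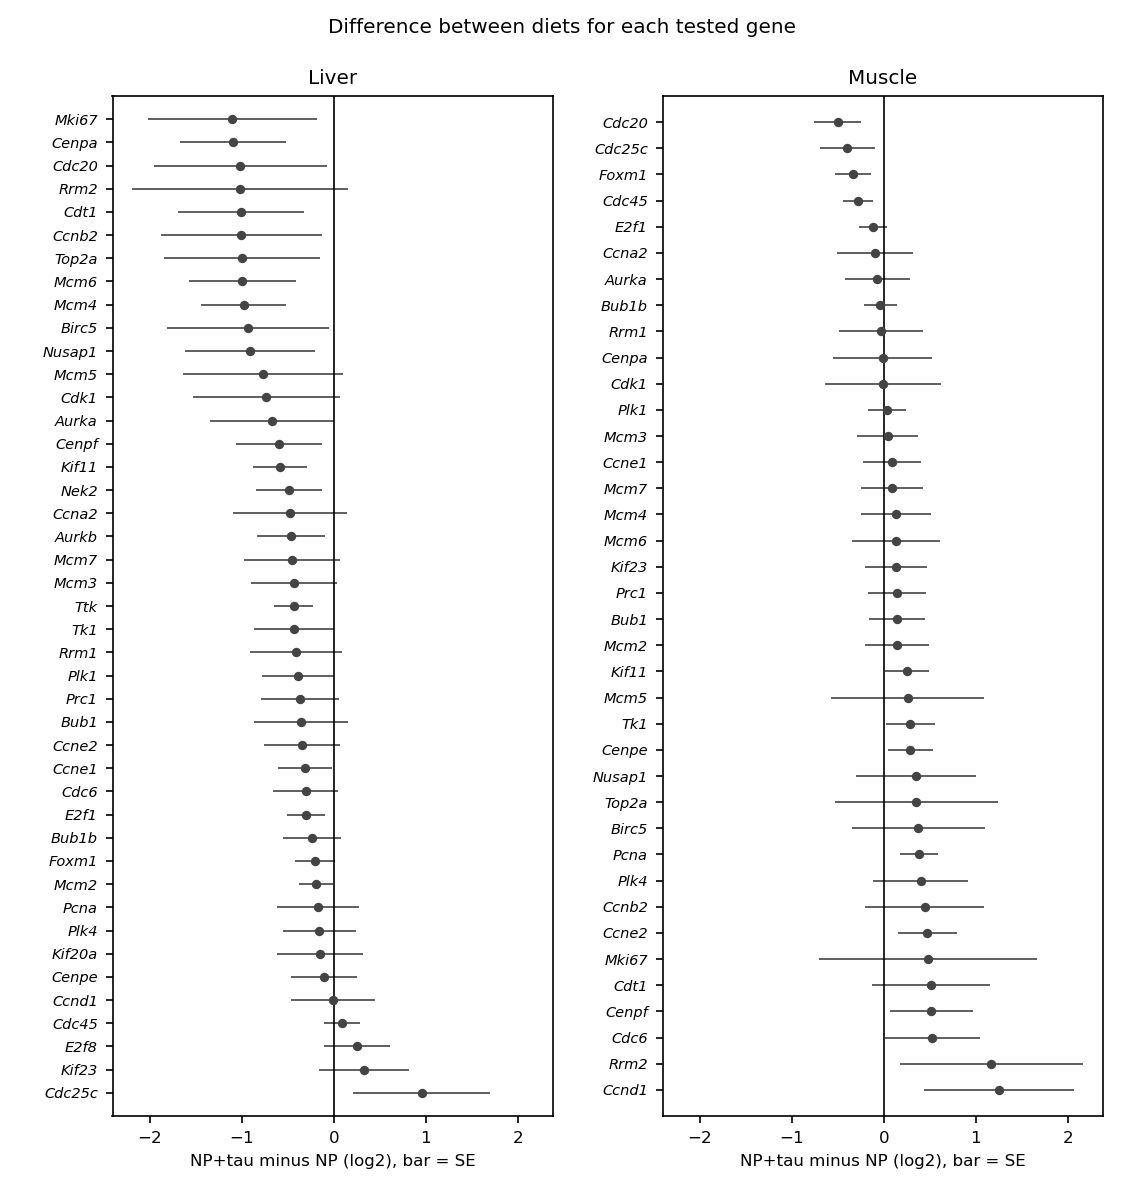
Log2 difference between NP+tau and NP (horizontal axis) for each cell cycle gene tested in liver (left, 43 genes) and muscle (right, 38 genes), with the standard error from limma as the bar. In liver the points run from -1.10 for Mki67 to 0.95 for Cdc25c and 39 lie below 0, and in muscle they run from -0.50 for Cdc20 to 1.26 for Ccnd1 and 27 lie above 0.

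The spread of these genes between samples was wide in both tissues. Their range over the 6 livers had a median of 1.79, against 0.869 for all probes, and exceeded 1 for 38 of the 43 (88.4%, against 40.7% of all probes). In muscle the median range was 1.40, against 0.670 for all probes, and it exceeded 1 for 30 of the 38 (78.9%, against 24.5%). The median SE of the diet difference was 0.468 for the cell cycle genes and 0.242 for all probes in liver, and 0.349 and 0.189 in muscle. A given difference between diets was therefore harder to tell from the spread for these genes than for most. The mean of the 44 genes, each centred on its own mean, was 0.17, -1.25 and 0.40 in NP+tau livers and 0.70, -0.03 and 0.01 in NP livers. In muscle it was 0.01, -0.52 and 0.78 in NP+tau and -0.11, -0.42 and 0.27 in NP.

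The genes moved up and down together. The Pearson r of a gene with the mean of the other cell cycle genes, over the 6 livers, had a median of 0.887 and exceeded 0.8 for 35 of 43 genes, while 2.1% of all probes did so. In muscle the median was 0.933, and 27 of 38 exceeded 0.8 against 5.63% of all probes. These r are descriptions, since the 6 points share their arrays and 1 sample can set them. Over the 44 genes measured and without NP+tau 2, the median r in liver was 0.795, and in muscle it was at least 0.866 with any single sample left out. Among the genes tested, the lowest r in liver were those of Foxm1 with r of -0.37, Cdc45 with -0.03 and Cdc25c with 0.17, and in muscle Cdc45 with -0.80, Foxm1 with -0.71, Cdc25c with -0.41 and Bub1b with -0.28. These are the r of the chosen probe sets. The other Bub1b probe sets were at 4.72, 4.59 and 5.09 and at 4.58, 4.12 and 5.04 in NP+tau muscles and at 4.84, 4.86 and 5.10 and at 4.53, 4.11 and 4.87 in NP muscles, highest in sample 3 of either group as most of these genes were. Cdk1 in liver (r of 0.998) and Birc5 in muscle (0.991) followed the others most closely.

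**Figure D4:**
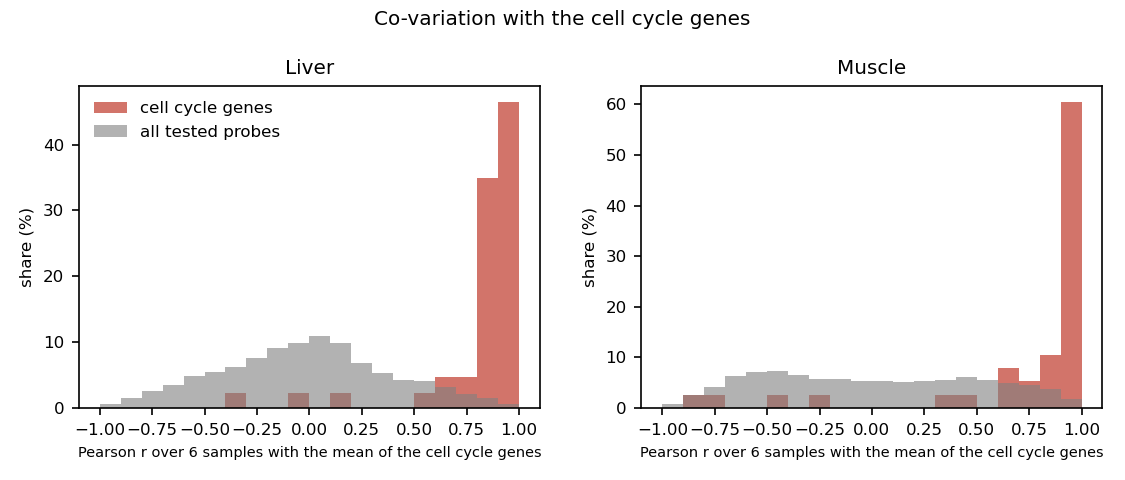
Share in percent (vertical axis) of the cell cycle genes tested (red) and of all probes tested (grey) by Pearson r over 6 samples with the mean of the cell cycle genes (horizontal axis), in liver (left) and muscle (right). The cell cycle genes pile up above 0.8, with 35 of 43 genes in liver and 27 of 38 in muscle, while all probes spread over the whole range.

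Genes that are switched on in the cycle share short promoter sequences. The cell cycle genes homology region (CHR), often with CCAAT boxes beside it, marks genes of G2 and mitosis, and E2F sites mark genes of G1 and S. Promoters were taken from RefSeq (GRCm38.p6) as the 250 bases before and the 50 after the transcription start, for 37 of the 45 genes, of which Mcm7 and Prc1 had more than 1. Aurkb, Foxm1, Cdc25c, Mcm4, Kif20a, Ccne2, Ccnd1 and Ccna2 had no entry. CHR was searched as TTTGAA or TTCGAA, the CCAAT box as CCAAT, and the E2F site as TTTCCCGC, TTTGGCGC or TTTCGCGC, each on both strands. Neighbouring words may share bases, which then count for each. Of the 22 promoters of the genes of G2 and mitosis, 16 held a CHR (72.7%), against 4 of 17 of the genes of G1 and S (23.5%) and 19.2% of all 32851 promoters. Each of the 20 cell cycle promoters with a CHR also held a CCAAT box, and 7.52% of all promoters held both. An E2F word stood in 6 of the 17 promoters of G1 and S genes (35.3%), in 1 of the 22 of G2 and mitosis, that of Cdk1, and in 1.84% of all promoters. A match is a description of letters and not of a bound site.

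The promoters of 6 genes with wide ranges over the livers are given because they carry these words, with CHR, CCAAT and E2F words on either strand in capitals. All read 5′ to 3′ on the strand of the gene. Cdc20 lies at chr4:118437294-118437593 on the minus strand, Mki67 at chr7:135716330-135716629 on the minus strand, Ccnb2 at chr9:70421505-70421804 on the minus strand, Top2a at chr11:99024140-99024439 on the minus strand, Cdk1 at chr10:69352863-69353162 on the minus strand and Mcm5 at chr8:75109259-75109558 on the plus strand.
Cdc20: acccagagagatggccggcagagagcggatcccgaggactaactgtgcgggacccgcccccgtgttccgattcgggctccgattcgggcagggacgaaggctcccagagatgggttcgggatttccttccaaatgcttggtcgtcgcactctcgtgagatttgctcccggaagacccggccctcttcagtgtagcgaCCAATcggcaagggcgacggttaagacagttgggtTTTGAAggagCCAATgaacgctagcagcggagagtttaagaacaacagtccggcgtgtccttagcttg
Mki67: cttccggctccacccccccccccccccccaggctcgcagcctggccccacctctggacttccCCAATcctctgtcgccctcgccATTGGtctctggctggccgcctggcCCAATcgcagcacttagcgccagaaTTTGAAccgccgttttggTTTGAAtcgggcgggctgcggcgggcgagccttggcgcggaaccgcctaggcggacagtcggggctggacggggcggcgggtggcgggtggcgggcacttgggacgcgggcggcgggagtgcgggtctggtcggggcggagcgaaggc
Ccnb2: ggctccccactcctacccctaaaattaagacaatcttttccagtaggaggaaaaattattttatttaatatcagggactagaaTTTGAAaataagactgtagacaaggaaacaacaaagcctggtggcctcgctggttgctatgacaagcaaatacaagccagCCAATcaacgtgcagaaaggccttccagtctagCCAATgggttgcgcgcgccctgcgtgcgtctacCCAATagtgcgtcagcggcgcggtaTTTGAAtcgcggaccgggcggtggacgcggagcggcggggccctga
Top2a: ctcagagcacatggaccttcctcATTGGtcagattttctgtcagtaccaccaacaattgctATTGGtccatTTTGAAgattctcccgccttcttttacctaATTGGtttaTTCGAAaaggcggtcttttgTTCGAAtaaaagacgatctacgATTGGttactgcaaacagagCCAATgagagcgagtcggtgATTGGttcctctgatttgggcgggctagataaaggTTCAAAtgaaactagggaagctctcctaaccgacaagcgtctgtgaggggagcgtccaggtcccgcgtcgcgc
Cdk1: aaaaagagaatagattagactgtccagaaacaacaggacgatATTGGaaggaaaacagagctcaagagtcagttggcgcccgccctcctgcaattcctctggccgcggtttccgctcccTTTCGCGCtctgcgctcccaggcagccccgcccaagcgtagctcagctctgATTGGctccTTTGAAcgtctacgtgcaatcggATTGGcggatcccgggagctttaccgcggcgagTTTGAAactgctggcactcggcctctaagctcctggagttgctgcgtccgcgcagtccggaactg
Mcm5: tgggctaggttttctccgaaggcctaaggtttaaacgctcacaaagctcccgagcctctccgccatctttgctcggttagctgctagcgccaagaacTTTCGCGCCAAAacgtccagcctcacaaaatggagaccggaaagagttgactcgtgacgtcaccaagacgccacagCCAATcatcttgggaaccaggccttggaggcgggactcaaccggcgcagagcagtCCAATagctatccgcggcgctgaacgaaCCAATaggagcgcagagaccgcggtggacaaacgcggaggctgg

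The 5 promoters of the mitotic genes above, picked for these words, each held a CHR and at least 2 CCAAT boxes. Top2a held 4 CHR and 6 CCAAT words. Mcm5, a gene of G1 and S with no CHR word, held 2 overlapping E2F words and 3 CCAAT boxes. Its liver values had an r of 0.962 with the mean of the other cell cycle genes, those of both phases together. Birc5, Rrm2 and Nusap1, with ranges over the livers of 3.81, 4.94 and 3.17, held 0 CHR and 0 E2F words in this window. Rrm2 held 1 CCAAT box, and Birc5 and Nusap1 held 0. By phase, the median difference in liver was -0.48 for the 25 genes of G2 and mitosis tested and -0.41 for the 17 of G1 and S, and in muscle it was 0.14 for both. Both phases were lowest in liver NP+tau 2, with centred means of -1.28 for G2 and mitosis and -1.22 for G1 and S.

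The difference between diets was set against the other tissue in a test of the interaction (liver minus muscle) over 25622 probes. For 34 of the 38 genes tested the liver difference was below the muscle difference, with a median of -0.58, and the median of all probes was -0.13. No gene passed, with 0 at an adjusted p under 0.05 (0% of all probes) and 0 at an unadjusted p under 0.05 (5.35% of all probes lower and 2.45% higher). Mcm4 had the smallest p, with a liver minus muscle difference of -1.11 (SE 0.65, adjusted p = 0.542). That fit takes the 12 samples as separate animals. With equal numbers taken as 1 animal and the animal as a block, 8 of the 38 were lower in liver than in muscle at an unadjusted p under 0.05, against 8.32% of all probes, and 0 were higher, against 3.35%. They were Mcm6, Mcm4, Cdt1, Mki67, Birc5, Cenpa, Cenpf and Ccne2, and 0 passed at an adjusted p under 0.05 (smallest 0.424).

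Other genes of the cycle, from lists written with results of these data known, were also lowest in liver NP+tau 2. Of the replication and repair synthesis genes, such as those of the replication fork, 37 were tested in liver, with a median of -0.24 and 26 below 0, where 54.2% of all probes lay. Their centred means were -0.02, -0.59 and 0.33 in NP+tau livers and 0.27, 0.06 and -0.04 in NP livers, so that NP+tau 3 and not NP 1 was the highest. Gins3, of the GINS complex of the fork, was higher at an unadjusted p under 0.05 (0.62, SE 0.19, adjusted p = 0.718) and Brca1 lower (-0.78, SE 0.32, adjusted p = 0.718), against 0.7% of all probes higher and 3.99% lower. Of 59 further genes of mitosis and cytokinesis tested in liver, 49 were below 0 with a median of -0.32, and 0 were at an unadjusted p under 0.05. In muscle, 36 replication genes had a median of -0.001 and 50 mitosis genes a median of 0.15, and 1 gene of each was at an unadjusted p under 0.05, Gmnn (geminin, the inhibitor of Cdt1) higher at 0.61 and Spc25 (of the kinetochore) lower at -0.43, against 3.72% of all probes higher and 2.4% lower. The centred mean of these mitosis genes was lowest in liver NP+tau 2 (-0.83) and highest in muscle NP+tau 3 (0.51).

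Genes that hold the cycle back were also measured. Of 18 CDK inhibitors and p53 targets tested in liver, 8 were lower at an unadjusted p under 0.05 and 7 did not overlap, beside 3.99% and 9.11% of all probes. Btg1, an antiproliferative factor, was at 8.43, 9.36 and 9.90 in NP+tau livers and at 11.0, 10.6 and 10.5 in NP livers (-1.48, SE 0.38, adjusted p = 0.718). Gadd45a, a stress-induced growth arrest gene, was at 5.61, 5.46 and 5.06 in NP+tau livers and at 6.23, 5.92 and 5.97 in NP livers (-0.66, SE 0.21, adjusted p = 0.718). Ccng2, a cyclin of arrested cells, differed by -1.20 (SE 0.38). The retinoblastoma gene Rb1, which holds E2F in check, was at 5.03, 5.24 and 5.42 in NP+tau livers and at 6.33, 5.78 and 5.81 in NP livers (-0.74, SE 0.22, adjusted p = 0.718). It is 1 of 26 genes tested of the G1 cyclins, kinases and pocket proteins. Of these, 4 were lower at an unadjusted p under 0.05 in liver and 5 were lower without overlap, beside 3.99% and 9.11% of all probes. NP+tau 1, the array that stood apart, was the lowest liver for Btg1 and Rb1. In muscle Gadd45g was at 9.69, 9.95 and 9.98 in NP+tau and at 9.19, 8.52 and 8.35 in NP (1.19, SE 0.24), whereas Gadd45b was at 6.97, 8.11 and 6.93 in NP+tau and at 8.85, 8.46 and 8.39 in NP (-1.23, SE 0.34), each at adjusted p = 0.707.

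Markers of some other cells moved with the same samples, and those of others did not. In liver the 15 macrophage markers, centred as above, were at -0.29, -1.22 and -0.33 in NP+tau and at 1.22, 0.15 and 0.47 in NP, with mean levels of 7.33 to 8.26 in NP+tau and 8.70 to 9.77 in NP. All 15 were below 0 and 12 were at an unadjusted p under 0.05, beside 3.99% of all probes. They were thus lowest in NP+tau 2 and highest in NP 1, as the cell cycle genes were, but their groups did not overlap. The 13 granulocyte precursor markers were at -0.56, -0.62 and -0.82 in NP+tau livers and at 1.94, -0.14 and 0.21 in NP livers. The 13 stellate cell and fibroblast markers did not overlap either, at -0.25, -0.54 and -0.17 in NP+tau livers and at 0.65, 0.23 and 0.08 in NP livers, and 7 of the 12 tested were lower at an unadjusted p under 0.05. They too were lowest in NP+tau 2 and highest in NP 1. Separation of list means was not confined to these cells. The 9 reference control genes did not overlap, at -0.40, -0.01 and -0.02 in NP+tau livers and at 0.33, 0.06 and 0.04 in NP livers. Of these 9 genes, 8 were below 0 and 0 were lower at an unadjusted p under 0.05, beside 54.2% and 3.99% of all probes. The means of the granulocyte precursor, neutrophil and CDK inhibitor lists did not overlap either. Erythroid markers (14 genes) were at -0.09, -0.34 and -0.23 in NP+tau livers and at 0.58, -0.13 and 0.21 in NP livers. Hepatocyte markers stayed between -0.26 and 0.23 in NP+tau livers and between -0.23 and 0.26 in NP livers. In NP+tau 3 the cell cycle genes were at 0.40 while the macrophage and granulocyte precursor lists were below 0. The neutrophil list was lowest in NP+tau 3 (-0.77). Endothelium markers (13 genes) were lowest in NP+tau 1 (-0.55) and highest in NP+tau 3 (0.31). The B lymphocyte and the T and NK lymphocyte lists were highest in NP+tau 1, each at 0.20.

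In muscle the sample with the highest cell cycle level also had the highest B lymphocyte level, with the 11 markers at -0.33, -0.51 and 2.11 in NP+tau and at -0.51, -0.48 and -0.28 in NP. Ms4a1, the B cell antigen CD20, was at 4.04, 3.90 and 8.86 in NP+tau muscles and at 3.76, 3.90 and 3.77 in NP muscles. Erythroid markers were at -0.14, -0.80 and 1.23 in NP+tau muscles and at 0.23, -0.37 and -0.16 in NP muscles, and the 15 T and NK lymphocyte markers reached 0.79 in NP+tau 3. Granulocyte precursor markers were highest in NP 3 (2.11) and lowest in NP 2 (-1.42), which were also the highest and lowest NP muscles for the cell cycle genes. Muscle fibre markers lay within -0.06 and 0.03 in all 6 muscles. None of these markers is at 0 on this scale, dim ones being near 4. NP+tau 2 and 3, male by Xist and Eif2s3y, were the lowest and the highest NP+tau samples for the mean of the cell cycle genes in both tissues. All NP samples were female by the same genes, so that sex and diet were mixed. The part of the marked cell types, of sex and of the array that stood apart in the results was not tested.

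**Figure D5:**
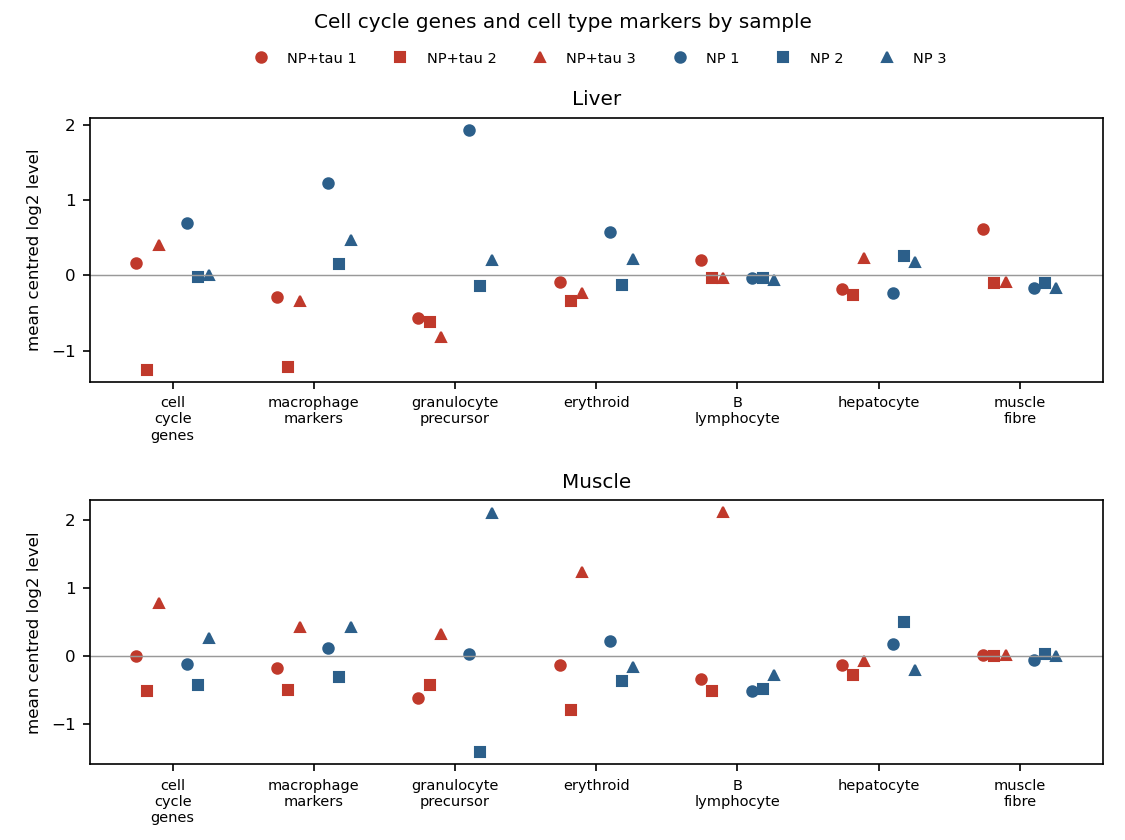
Mean centred log2 level (vertical axis) of the 44 cell cycle genes and of 6 lists of cell type markers in each liver (top) and muscle (bottom), NP+tau in red left of NP in blue, with the marker giving the sample number. In liver the cell cycle and macrophage lists share their lowest (NP+tau 2) and highest (NP 1) samples, and in muscle NP+tau 3 is highest for the cell cycle, erythroid and B lymphocyte lists.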

How the data were processed

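The 12 arrays (Affymetrix) held RNA of liver and quadriceps, 3 of NP+tau and 3 of NP offspring in each tissue. The deposited values are log2 expression values, which the authors made by quantile normalisation and RMA in R and Bioconductor, each tissue apart. They cover 45101 probes, of which 64 were control probes. Absent and present calls were not analysed. Without the control probes, a probe entered the test when its highest of 6 values reached the 35th percentile of such values.

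Gene names came from the platform annotation, in which 34958 probes had 1 symbol, 932 several and 9211 none. A gene was read from its single-symbol probe with the highest mean in the tissue, and for the interaction over all 12 samples. The members, roles and lists were chosen with earlier results of these data known. The genes named are Mki67, Top2a, Ccnd1, Cdk1, Pcna and Mcm2, the 12 with the smallest unadjusted p in each tissue and up to 4 of each other list. Ccnb2, Cdc20, Rrm2, Mcm5, Birc5 and further genes in counts and ranges were named after their values were seen.

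NP+tau was compared with NP in limma 3.58.1 (lmFit, eBayes; R 4.3.3) without covariates, with Benjamini-Hochberg adjustment and a threshold of 0.05. No test was made of a list. Alternatives were no filter, a filter at the 50th percentile, an intensity trend, array weights, centred arrays, the Xist level as a covariate, the mean of all probes of a gene, a replicate block and each sample left out in turn.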

Additional observations from a re-analysis of the deposited data

How the results depend on the processing

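Under the settings run, the cell cycle genes kept 0 calls at an adjusted p under 0.05 in both tissues, except with the Xist level as a covariate in liver, which called 2, Cdc25c (3.11, adjusted p = 0.00633) and Kif23 (1.54, adjusted p = 0.0452). That fit sets the array of liver NP+tau 1 against the NP livers and called 9449 of all probes. All probes called numbered 0 in each tissue, 8 in liver with array weights, 0 to 9 in liver and 0 to 8 in muscle with single samples or both liver samples numbered 1 left out. Cell cycle genes at an unadjusted p under 0.05 numbered 0, with exceptions. In liver there were 2 with the Xist covariate, where 5554 of the 29274 probes were higher and 7665 lower. With samples left out there were 0 to 7 in liver (1 without NP+tau 2, E2f8, and 7 without NP+tau 3). The 7 were all lower, where 1849 of the 29274 probes were lower and 316 higher. In muscle there was 1 with array weights (Foxm1), 1 with the replicate block (Cdc20) and 0 to 3 with samples left out. The 3 came without NP+tau 2, Ccnd1 and Cenpf higher and Foxm1 lower. In the main fit 3.72% of all muscle probes were higher and 2.4% lower at that p. Whether the replicate numbers pair the diets is not stated and cannot be told from 3 samples a group. The deviations of equal numbers correlated at 0.016, -0.11 and 0.11 in liver and at -0.21, -0.27 and 0.33 in muscle. The test of the difference between tissues called 0 probes under each setting run, animal as a replicate block included, while the cell cycle genes at an unadjusted p under 0.05 numbered 8 with that block, 1 without the filter and 0 to 1 with samples left out. Whether equal numbers are 1 animal is not stated, and their liver and muscle deviations correlated at 0.23, 0.18 and 0.21 in NP+tau and at 0.0058, 0.21 and -0.036 in NP.

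The number of genes below 0 in liver (39) ran from 21 to 42 and the median difference from -0.72 to 0.04 with samples left out. With the Xist covariate they were 29 and -0.18, and with the mean of all probes of a gene 39 and -0.27. The number above 0 in muscle (30) ran from 12 to 37 and the median from -0.19 to 0.41, and it was -0.003 with the Xist covariate. Single genes near 0 changed sign. In liver Ccnd1 was 0.10 with arrays centred, 0.35 with the Xist covariate and -0.31 to 0.51 with samples left out. Pcna was 0.38 with the Xist covariate and -0.47 to 0.34 with samples left out, Cdk1 -1.27 to 0.18 and Cenpf -1.05 to 0.029. In muscle Cdk1 was 0.33 with array weights, 0.21 with the Xist covariate and -0.51 to 0.63 with samples left out. Ccne2 was -0.0023 and Mcm2 -0.15 with the Xist covariate. With samples left out Mcm2 ran from -0.25 to 0.41, Mki67 from -0.67 to 1.67 and Top2a from -0.38 to 1.24. The causes were not tested. A few arrays a group limit what can be told apart.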
